A study of Rattus norvegicus with 12 samples.

Results

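This account describes the genes of heat shock proteins and DnaJ co-chaperones in the livers of obese Zucker rats fed a diet with PSC or a control diet. Heat shock proteins are chaperones that bind unfolded or stressed proteins and help them fold. The HSP70 proteins (Hspa genes) do this in cycles of ATP hydrolysis, DnaJ proteins (Dnaja, Dnajb and Dnajc genes) bring them their clients and start the hydrolysis, and nucleotide exchange factors of the HSP110 type reset them. Small heat shock proteins (Hspb genes and Cryab) hold unfolded proteins without ATP, and the chaperonin of mitochondria (Hspd1 with its lid Hspe1) folds proteins inside a closed chamber. Many cytosolic members are induced by the transcription factor HSF1, and those of the endoplasmic reticulum (ER) by the unfolded protein response, which matters in the liver because hepatocytes secrete large amounts of protein.

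Members were rows of the array table with exactly 1 gene symbol, taken by a pattern of gene symbols (Hspa, Hspb, Hspd, Hspe, Hsph, Dnaja, Dnajb or Dnajc followed by a digit, and Cryab), with Hspbp1 and Hspbap1 left out and the row of the highest mean kept for each gene. This gave 62 of 18166 genes tested. The pattern asks for a digit directly after "Hsp90", so that Hsp90ab1 and Hsp90b1 are not members and are given beside them. Another 5 rows that pair a gene of these families with other symbols were left out by the same rule. Hspa1a, Hspa1b and Hspa1l are not among the members and Hsp90aa1 is not among the genes tested. No result below covers these genes. By family, 10 members belong to HSP70, 8 to the small heat shock proteins, 4 to Dnaja, 12 to Dnajb and 25 to Dnajc, and 3 are Hspd1, Hspe1 and Hsph1. By the known place of the protein, 32 are cytosolic or nuclear, 12 belong to the ER, 7 to mitochondria, and 11 to other membranes or to no place that was assigned.

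Each diet has 6 arrays, of 1 male rat each. The PSC group ate a diet with 5% PSC, the labels' name for a supplement made by biotechnology on an agricultural side stream (the series title speaks of oyster mushroom), and the control group a diet without it of comparable energy and crude nutrients. All rats were homozygous for the fa mutation of the leptin receptor gene (Crl:ZUC-Leprfa), 5 to 6 weeks old at the start and killed on day 29. The measure is the log2 signal of a whole-transcript rat array (Affymetrix Rat Gene 2.0 ST) on RNA from pieces of whole liver. Rats were housed 2 to a cage and no label ties an array to a cage, so that the p-values rest on the spread between rats as if all were independent.

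The arrays had median log2 signals of 4.71 to 4.85 and correlated with each other across genes at 0.987 to 0.995. On the first principal component, which held 27.19% of the variance, controls scored -18.7 to -4.34 and PSC arrays -1.57 (replicate 4) to 16.6. The second component held 16.25% of the variance. On it PSC replicates 2 and 5 had the highest scores, 21.2 and 11.7, against -13.5 to 6.39 for the other arrays. Of 8 hepatocyte markers, 7 were measured and 0 passed the test between diets, and their mean log2 signal was 11.5 to 11.7 in PSC-fed rats and 11.5 to 11.6 in controls. The number of arrays limits the precision of every value below, and no detection calls were used.

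Hspa4l, Hspb1 and Dnajb9 fell in PSC-fed rats and no member rose (limma, adjusted p below 0.05 over all 18166 genes, n = 6 per diet). These are 3 of 62 members lower, or 4.84%, where 1.89% of all genes tested were lower, and 0 of 62 higher, where 0.716% of all genes were higher. At an unadjusted p below 0.05, 11 members were lower, or 17.7%, where 10.1% of all genes were, and 4 were higher, or 6.45%, where 9.02% of all genes were. All 6 PSC arrays lay below every control for 4 members (Hspa4l, Hspb1, Dnajb9 and Hspa13), where 1.48% of all genes were separated in that direction. No member had all 6 PSC arrays above every control, where 0.71% of all genes did.

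The median log2 fold change (PSC minus control) was -0.026 over the members and 0.013 over all genes, and 56 of 62 members, or 90.3%, had a value between -0.25 and 0.25, where 90.9% of all genes did. Values were below 0 for 37 members, or 59.7%, where 45.7% of all genes were, and above 0 for 24, or 38.7%, where 53.8% were, and Dnajc21 had a difference of 0. Among all genes the brighter ones had lower values, with medians of -0.037, 0.013 and 0.063 in 3 classes of about equal size, from the highest to the lowest mean signal. In the same classes the members' medians were -0.057 (34 members), -0.00083 (18 members) and 0.021 (10 members).

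**Figure D1:**
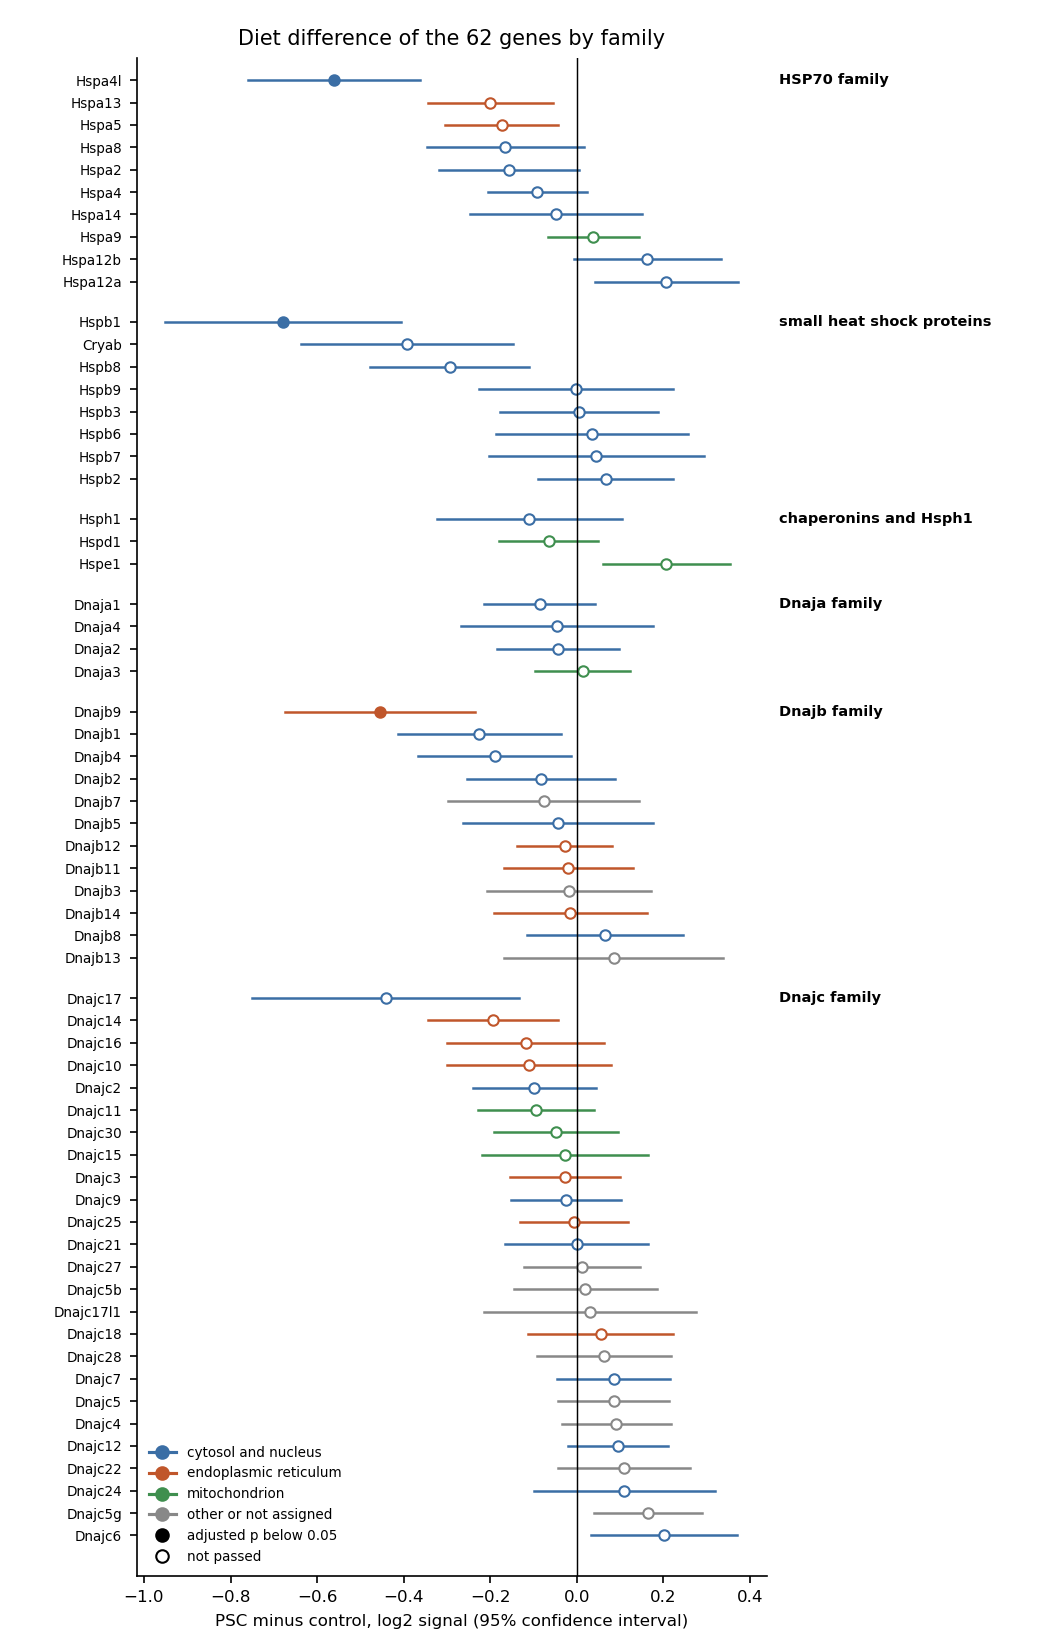
Difference in log2 signal between PSC-fed and control rats (x axis, PSC minus control, with the 95% confidence interval from limma) for the 62 genes, one line each, grouped by family and coloured by the place of the protein. Filled points mark the 3 genes with an adjusted p below 0.05, Hspa4l, Hspb1 and Dnajb9, which all lie left of 0; most of the other intervals hold 0.

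The upstream sequences of the 3 changed genes, and of Hspa5 as the ER chaperone with known stress elements, are shown because HSF1 and the unfolded protein response act through short elements near the start site. Each is the 250 bases before the RefSeq start site on the gene's own strand (RefSeq, assembly GRCr8), 5′ to 3′, with motif matches in capitals. They lie at chr2:125668096-125668345 on the plus strand for Hspa4l, chr12:26432302-26432551 on the minus strand for Hspb1, chr6:67002052-67002301 on the minus strand for Dnajb9 and chr3:38452766-38453015 on the plus strand for Hspa5.
Hspa4l: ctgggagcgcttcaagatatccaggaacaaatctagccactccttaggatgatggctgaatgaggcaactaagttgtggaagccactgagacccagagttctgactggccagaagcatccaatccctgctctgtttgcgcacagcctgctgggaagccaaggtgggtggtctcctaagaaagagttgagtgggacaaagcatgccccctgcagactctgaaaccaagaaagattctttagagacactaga
Hspb1: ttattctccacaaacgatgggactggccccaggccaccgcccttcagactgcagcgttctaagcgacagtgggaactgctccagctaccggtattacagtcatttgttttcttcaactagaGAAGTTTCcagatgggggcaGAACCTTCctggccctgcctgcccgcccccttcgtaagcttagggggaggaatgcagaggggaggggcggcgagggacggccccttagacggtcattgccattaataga
Dnajb9: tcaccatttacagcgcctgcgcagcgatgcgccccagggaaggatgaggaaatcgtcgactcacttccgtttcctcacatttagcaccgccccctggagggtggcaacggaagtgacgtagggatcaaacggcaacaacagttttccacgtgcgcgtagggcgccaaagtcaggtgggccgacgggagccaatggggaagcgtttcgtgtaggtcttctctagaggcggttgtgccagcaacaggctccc
Hspa5: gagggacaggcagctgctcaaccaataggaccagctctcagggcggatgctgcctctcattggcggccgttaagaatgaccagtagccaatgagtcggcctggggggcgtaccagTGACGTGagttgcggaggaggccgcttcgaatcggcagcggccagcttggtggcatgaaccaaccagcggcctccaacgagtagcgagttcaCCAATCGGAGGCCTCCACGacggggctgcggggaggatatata

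The motifs searched on both strands, with N for any base, were 3 forms of the heat shock element, namely GAANNTTC, TTCNNGAA and a long form in which GAANNTTC runs on into NNGAA. The others were the ER stress element, CCAAT and CCACG with 9 bases of any kind between them, and the unfolded protein response core TGACGTG. Matches overlap, since every long form holds a GAANNTTC and a TTCNNGAA. Of the 62 members 50 have an entry in the table of 33469 promoters. The long form was present in 4 of the 50 members (Hspa8, Hspd1, Hspe1 and Hsph1) and in 0.663% of all promoters. GAANNTTC was present in 12 members and 7.23% of all promoters, and TTCNNGAA in 7 members and 7.48%. In each of these 3 counts Hspd1 and Hspe1 share the same stretch of DNA, read on opposite strands and counted for both. The ER stress element was present in Hspa5 and Dnajc3 and in 0.0657% of all promoters, and TGACGTG in 5 members and 1.54%. In Hspb1 the capitals are 2 matches of GAANNTTC. In Hspa5 the ER stress element ends 24 bases before it. None of these letters matched in the 250 bases of Hspa4l or Dnajb9. A match is a description of the letters and was not tested against binding.

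For Hspa8, Hspe1 and Hsph1 the long match nearest to the start site is shown with its neighbouring bases, 30 in all, from chr8:50080451-50080480 for Hspa8, chr9:64084256-64084285 for Hspe1 and chr12:10427324-10427353 for Hsph1, all on the plus strand (GRCr8, capitals mark the match). They show what the long form looks like in members whose levels did not pass the test between diets. In Hspe1 overlapping matches form 1 longer run, and Hspa8 holds another long match farther upstream that is not shown.
Hspa8: cggaacccTTCTGGAAGGTTCtaagacagg
Hspe1: gctcggTTCTAGAACCTTCCGGAAggcccc
Hsph1: gccgcagaTTCTGGAAAGTTCtcctcagta

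Among the small heat shock proteins, Hspb1 fell and the other 7 did not pass the test. Hspb1 encodes HSP25, the rodent form of HSP27, which holds unfolded proteins and binds actin. It had a lowest, median and highest log2 signal of 4.19, 4.54 and 4.65 in PSC-fed rats, against 4.80, 5.16 and 5.55 in controls. The diets did not overlap, and the controls were spread more widely than the PSC-fed rats, with an SD of 0.32 against 0.16 in the PSC group. The log2 fold change was -0.68 (SE 0.13, limma adjusted p = 0.0159), a 1.6-fold fall, and it passed the threshold whichever array was left out. Over all the alternatives run, the limma adjusted p was 0.00698 to 0.0566. The signal of Hspb1 lay around the arrays' medians over all rows, 4.71 to 4.85, and no detection calls were used.

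Cryab and Hspb8 had the next lowest values of this family. Cryab encodes alpha B-crystallin, a small heat shock protein of lens and muscle. Its lowest, median and highest log2 signals were 4.33, 4.78 and 5.07 in PSC-fed rats and 4.89, 5.11 and 5.40 in controls, and 5 of 6 PSC arrays lay below every control, with PSC replicate 5 among the controls. The difference was -0.39 (SE 0.11, adjusted p = 0.0796), with an adjusted p of 0.0445 to 0.145 over the alternatives run. Hspb8 encodes HSP22, which works with the exchange factor Bag3 in the removal of misfolded proteins by autophagy. It had 7.51, 7.83 and 7.99 in PSC-fed rats, against 7.98, 8.09 and 8.29 in controls (lowest, median and highest log2 signal), a difference of -0.29 (SE 0.09, adjusted p = 0.0814). For Hspb8, 4 of 6 PSC arrays lay below every control.

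The remaining members of this family are best known from muscle, heart or testis and had values near 0. Hspb2, Hspb3, Hspb6, Hspb7 and Hspb9 lay between -0.0017 and 0.067. Hspb6, which encodes HSP20 of smooth muscle, had 0.035 with a 95% confidence interval of -0.19 to 0.26. With 4 values below 0 and 4 above, where 45.7% of all genes lay below 0, the median of the family was 0.0017.

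Several markers of other liver cells had lower values in PSC-fed rats, as Hspb1 and Cryab did. Whether they vary together across arrays, and their part in the differences of Hspb1 and Cryab, was not tested. Of 14 measured markers of stellate and smooth muscle cells (of 16 listed) 6 fell and 0 rose. The 6 were Tagln, Col1a2, Col3a1, Dcn, Rgs5 and Bgn, and all 14 had values below 0. Over all genes 1.89% fell, 0.716% rose and 45.7% had values below 0. Without control replicate 1 the count of 6 became 2. It was 3 without PSC replicate 1, 3, 5 or 6 or control replicate 3, 4 or 6. It was 4 without PSC replicate 2 or control replicate 5, 7 without control replicate 2 and 8 without PSC replicate 4. Col3a1 passed in 2 of the 12 fits without 1 array and Rgs5 and Bgn in 3 each. The mean log2 signal of the 14 markers was 6.57 to 6.89 in PSC-fed rats and 6.93 to 7.13 in controls, without overlap. Des and Myl9, also contractile cell markers, had -0.20 and -0.28. Of 6 bile duct markers 1 fell, Anxa4 (-0.41), a call that held in 3 of 12 fits without 1 array (PSC replicate 2 or 4, or control replicate 2), and the mean log2 signal of this list was 4.86 to 4.96 in PSC-fed rats and 4.92 to 5.03 in controls. The keratin genes Krt7 and Krt19 had 0.037 and 0.27. Of 5 measured markers of skeletal and heart muscle (of 6 listed) 0 passed, with 4.4 to 4.5 in PSC-fed rats and 4.34 to 4.46 in controls. No marker can be called absent, since the array gives every probe a signal. In RNA from whole liver, fewer cells of a type and less RNA per cell cannot be told apart.

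**Figure D2:**
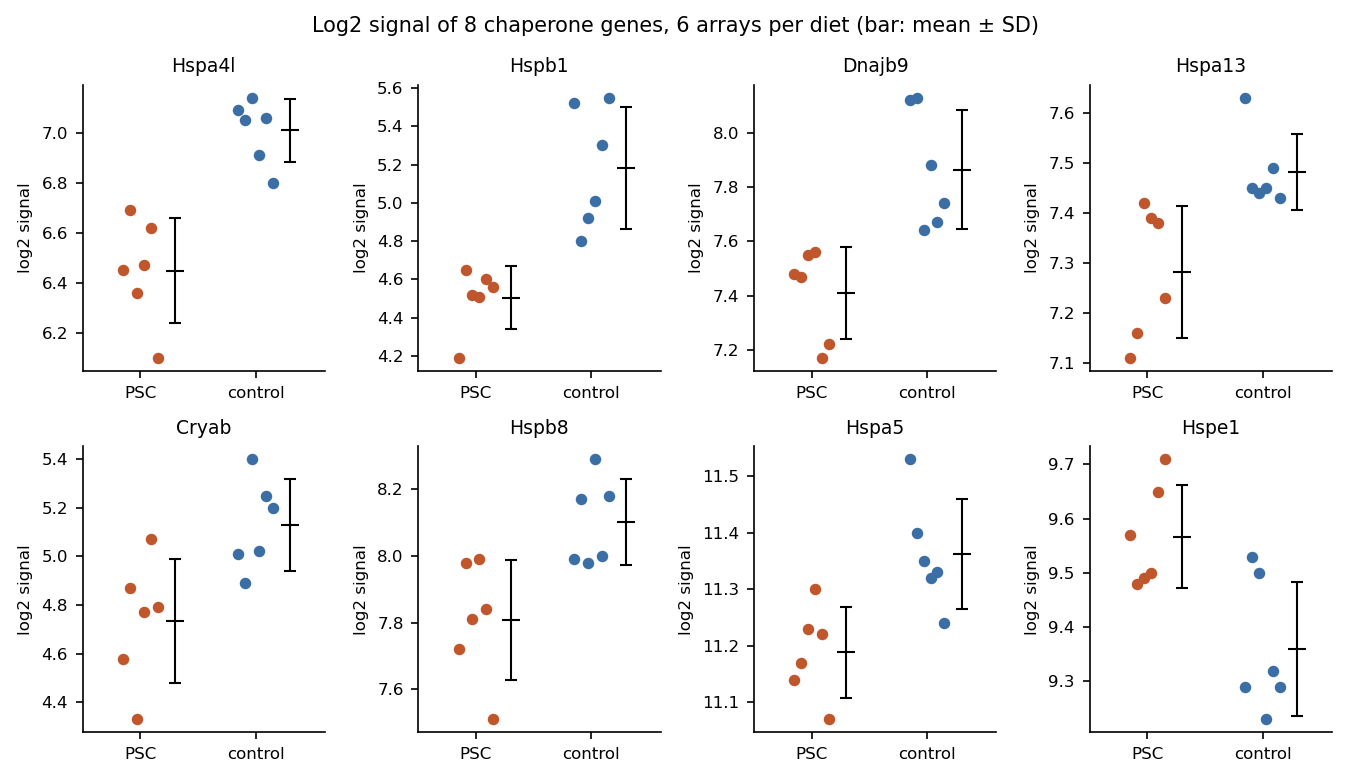
Log2 signal (y axis) of 8 genes in each of the 6 PSC and 6 control arrays, with the mean and SD as a bar beside the points. All PSC arrays lie below every control for Hspa4l, Hspb1, Dnajb9 and Hspa13, the other genes overlap, and Hspe1 has the higher mean in PSC-fed rats.

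In the HSP70 family Hspa4l fell, while its close relatives did not pass the test. Hspa4l encodes an HSP110-type protein, which releases ADP from HSP70 and prevents aggregation. Its lowest, median and highest log2 signals were 6.10, 6.46 and 6.69 in PSC-fed rats, against 6.80, 7.06 and 7.14 in controls, so that the diets did not overlap. PSC replicate 6 had the lowest value, and the lowest control was replicate 6. The log2 fold change was -0.56 (SE 0.09, adjusted p = 0.00952), a 1.47-fold fall. It passed the threshold in all 12 fits without 1 array, and the adjusted p was 0.00447 to 0.0329 over the alternatives run.

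The other HSP110-type genes had smaller values. Hspa4 had 8.0 to 8.2 in PSC-fed rats and 8.13 to 8.28 in controls, a difference of -0.092 with a 95% confidence interval of -0.21 to 0.023. Hsph1, which encodes HSP105, had 7.57, 7.94 and 8.06 in PSC-fed rats, against 7.78, 7.94 and 8.34 in controls (lowest, median and highest), a difference of -0.11 with an interval of -0.32 to 0.10. The interval of Hspa4l, -0.76 to -0.36, lies below both, although the differences between these genes were not tested.

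The major HSP70 proteins of the cytosol and the ER had values below 0 that did not pass. Hspa8, the constitutive HSP70 of the cytosol, had lowest, median and highest log2 signals of 11.18, 11.47 and 11.70 in PSC-fed rats and 11.49, 11.66 and 11.79 in controls, a difference of -0.17 (SE 0.08, adjusted p = 0.308). Hspa5, which encodes BiP, the HSP70 of the ER, had 11.07, 11.20 and 11.30 in PSC-fed rats and 11.24, 11.34 and 11.53 in controls, a difference of -0.17 (SE 0.06, adjusted p = 0.141). For Hspa5, 5 of 6 PSC arrays lay below every control. Hspa13, a microsomal relative of HSP70, did not overlap between diets, at 7.11 to 7.42 in PSC-fed rats and 7.43 to 7.63 in controls, but its difference of -0.20 (SE 0.07) did not pass (adjusted p = 0.125).

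Hspa9, the mitochondrial HSP70, varied least among rats of all members, with an SD of 0.048 within diets, and had a difference of 0.038 with an interval of -0.067 to 0.14. Hspa12a and Hspa12b, distant relatives of HSP70, had 0.21 (SE 0.08, adjusted p = 0.163) and 0.16 (SE 0.08, adjusted p = 0.284). A second transcript cluster of Hspa12a had a difference of 0.0050. Over the 10 members of the family the median was -0.12, with 7 values below 0, where 45.7% of all genes had values below 0.

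Among the DnaJ proteins Dnajb9 fell, and no other member of the 3 DnaJ families passed. Dnajb9 encodes ERdj4, an ER co-chaperone of BiP that is induced by the unfolded protein response and helps to restrain the sensor IRE1. Its lowest, median and highest log2 signals were 7.17, 7.48 and 7.56 in PSC-fed rats, against 7.64, 7.81 and 8.13 in controls. The diets did not overlap, with PSC replicates 5 and 6 lowest and control replicates 1 and 2 highest. The log2 fold change was -0.46 (SE 0.10, adjusted p = 0.0344), a 1.37-fold fall. The call was lost in 6 of 12 fits without 1 array. When PSC replicate 1, 5 or 6 was left out, the adjusted p became 0.0579, 0.0715 or 0.0758, in this order. When control replicate 1, 4 or 6 was left out, it became 0.0792, 0.0687 or 0.0532. Leaving out PSC replicates 2 and 5 together gave 0.104.

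Of the cytosolic Dnajb members, Dnajb1 encodes HSP40, the partner of HSP70 in the heat shock response. It had 6.73, 6.94 and 7.26 in PSC-fed rats, against 7.03, 7.19 and 7.32 in controls (lowest, median and highest log2 signal), a difference of -0.23 (SE 0.09, adjusted p = 0.178). Dnajb4, a relative of Dnajb1, had -0.19 (SE 0.08, adjusted p = 0.230), and 5 of 6 PSC arrays lay below every control, with PSC replicate 4 at 7.32. Its second cluster, not used for the test, averaged 5.63 ± 0.31 in PSC-fed rats and 5.98 ± 0.11 in controls (SD, n = 6), a difference of -0.35. Dnajb2, a neuronal co-chaperone that binds ubiquitin, had -0.082 (SE 0.08).

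The other ER members of this family had values near 0. Dnajb11, which encodes ERdj3 and binds unfolded proteins for BiP, had -0.020 with an interval of -0.17 to 0.13. The membrane proteins Dnajb12 and Dnajb14 had -0.028 and -0.015, and the second cluster of Dnajb12 had -0.013. The interval of Dnajb9, -0.67 to -0.24, lies below that of Dnajb11, and the difference between them was not tested. The family had a median of -0.036, with 10 of 12 values below 0, where 45.7% of all genes had values below 0.

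In the Dnajc family 0 of 25 members passed in either direction, and the median was 0.012. At unadjusted p below 0.05, 2 were lower and 2 higher, 8.0% in each direction, where 10.1% of all genes were lower and 9.02% higher. Dnajc17, a nuclear J protein of pre-mRNA splicing, had the lowest value, -0.44 (SE 0.14, adjusted p = 0.113), and the widest spread of all members within diets, an SD of 0.29. Its PSC arrays ran from 5.14 to 6.07 with a median of 5.54, against 5.81 to 6.22 with a median of 6.02 in controls. PSC replicates 1 and 6 lay among the controls and the other 4 below every control. Dnajc14, an ER membrane protein that assists receptor export, had -0.19 (SE 0.07, adjusted p = 0.155).

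On the upper side stood Dnajc6 and Dnajc5g. Dnajc6 encodes auxilin, which strips clathrin from vesicles, and had 4.01, 4.22 and 4.38 in PSC-fed rats, against 3.83, 4.08 and 4.11 in controls (lowest, median and highest log2 signal), a difference of 0.20 (SE 0.08, adjusted p = 0.179). Dnajc5g, a relative of cysteine string protein, had 0.17 (SE 0.06, adjusted p = 0.142). Its log2 signal was 3.28 to 3.49 in PSC-fed rats and 3.09 to 3.34 in controls. The signals of Dnajc6 and Dnajc5g lay below the arrays' medians over all rows, 4.71 to 4.85, and no detection calls were used. Dnajc3, which encodes the ER co-chaperone P58IPK, had -0.027 with an interval of -0.15 to 0.10. Dnajc30, a mitochondrial J protein linked to respiration, had -0.048, and its 2 other clusters, which hold identical values, had 0.088. The mitochondrial Dnajc11, which helps to shape the cristae, had -0.095, and Dnajc4 and Dnajc22 had 0.092 and 0.11. Dnajc12, a co-chaperone of the aromatic amino acid hydroxylases, had 0.095 with an interval of -0.020 to 0.21.

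All 4 Dnaja members lay close to 0. Dnaja1, a major partner of HSP70 in the cytosol, had 9.78, 9.87 and 9.98 in PSC-fed rats and 9.83, 9.98 and 10.11 in controls (lowest, median and highest log2 signal), a difference of -0.085 with an interval of -0.21 to 0.043. Dnaja2, also cytosolic, had -0.043 with an interval of -0.18 to 0.097. The mitochondrial Dnaja3 had 0.013, with an interval of -0.097 to 0.12, and Dnaja4 had -0.045, with an interval of -0.27 to 0.18.

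The mitochondrial chaperonin genes lie head to head on rat chromosome 9 (GRCr8), where their upstream windows overlap, and their values differed. Hspe1, which encodes the HSP10 lid, had lowest, median and highest log2 signals of 9.48, 9.54 and 9.71 in PSC-fed rats, against 9.23, 9.31 and 9.53 in controls. Its difference of 0.21 (SE 0.07) did not pass (adjusted p = 0.118), and 3 of 6 PSC arrays lay above every control. Hspd1, which encodes the HSP60 chamber, had 9.49, 9.57 and 9.65 in PSC-fed rats and 9.54, 9.64 and 9.70 in controls, a difference of -0.065 (SE 0.05, adjusted p = 0.532).

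The value of Hspd1 minus Hspe1 within each array was 0.00 ± 0.13 in PSC-fed rats and 0.27 ± 0.10 in controls (SD, n = 6), and its 6 PSC values lay below every control. This was a difference of -0.27 between the diets (exact two-sided permutation p = 0.00216, the smallest that 924 assignments can give, adjusted p = 0.00649 over 3 such comparisons). Signals of 2 probe sets are not on a common scale, so that only the change between diets is read. With the second cluster of Hspd1, whose own difference was 0.073, the change was -0.13 (exact permutation p = 0.13). The rat genome holds many Hspd1 pseudogenes, whose transcripts these probes may also bind.

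The other neighbouring pair is Cryab and Hspb2, whose annotated ranges overlap on rat chromosome 8. Hspb2, a small heat shock protein of muscle, had 4.70, 4.77 and 4.81 in PSC-fed rats, against 4.44, 4.71 and 4.96 in controls (lowest, median and highest log2 signal). Cryab minus Hspb2 was -0.025 ± 0.22 in PSC-fed rats and 0.44 ± 0.14 in controls (SD, n = 6). The difference between the diets was -0.46 (exact two-sided permutation p = 0.00433, adjusted p = 0.00649 over the 3 comparisons), with 5 of 6 PSC arrays below every control. Cryab itself differed by -0.39 and Hspb2 by 0.067, so that the pair mostly restates the value of Cryab. Hspb2 lay around the arrays' medians over all rows, 4.71 to 4.85, and no detection calls were used.

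**Figure D3:**
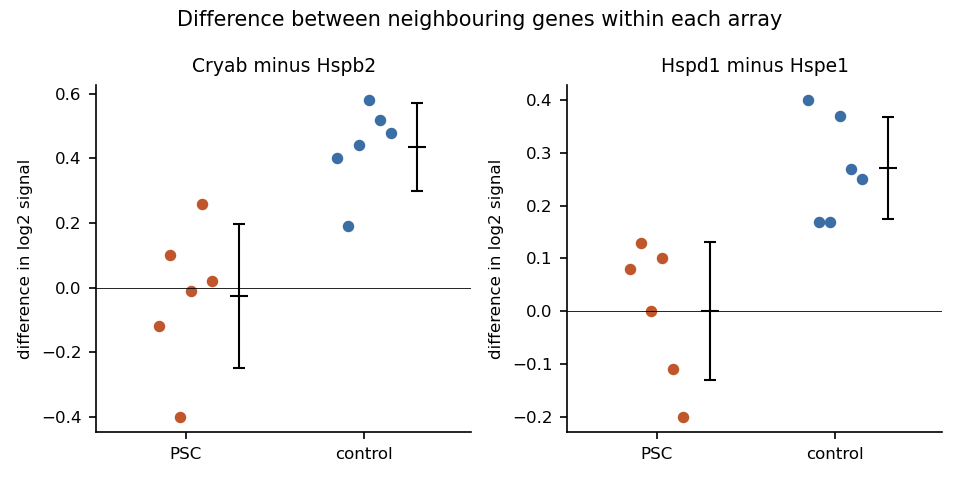
Difference in log2 signal between the 2 genes of a neighbouring pair within each array (y axis), for 6 PSC and 6 control arrays, with the mean and SD as a bar. For Hspd1 minus Hspe1 all PSC arrays lie below every control, and for Cryab minus Hspb2 5 of 6 do.

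By the place of the protein, the ER and the cytosol held the 3 changed genes; over all genes 1.89% fell and 45.7% had values below 0. Of 12 ER members 1 fell, Dnajb9, and 11 had values below 0, with a median of -0.069 and Dnajc18 (0.055) as the exception. Of 32 cytosolic or nuclear members 2 fell, Hspb1 and Hspa4l, and 20 had values below 0, with a median of -0.044. Of 7 mitochondrial members 0 passed and 4 lay below 0, with a median of -0.027 that moved to 0.018 after cyclic loess normalization. Among the 11 members of other or no assigned place 0 passed, 9 had values above 0, where 53.8% of all genes did, and the median was 0.063.

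Averaged over members after centring each gene over the 12 arrays, the cytosolic and nuclear group lay at -0.089 to -0.0085 in PSC-fed rats and at -0.013 to 0.094 in controls. For this group 5 of 6 PSC arrays were below every control. The ER group lay at -0.13 to -0.0042 in PSC-fed rats and at -0.024 to 0.18 in controls, where control replicate 1 was highest and PSC replicate 2 lowest. The mitochondrial group lay at -0.019 to 0.031 in PSC-fed rats, within the range of the controls, -0.048 to 0.078. The group of other or no assigned place lay at -0.055 to 0.086 in PSC-fed rats and at -0.059 to 0.0048 in controls. In that group 4 of 6 PSC arrays were above every control. These averages are descriptions of groups chosen with results of these data known, and carry no test.

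**Figure D4:**
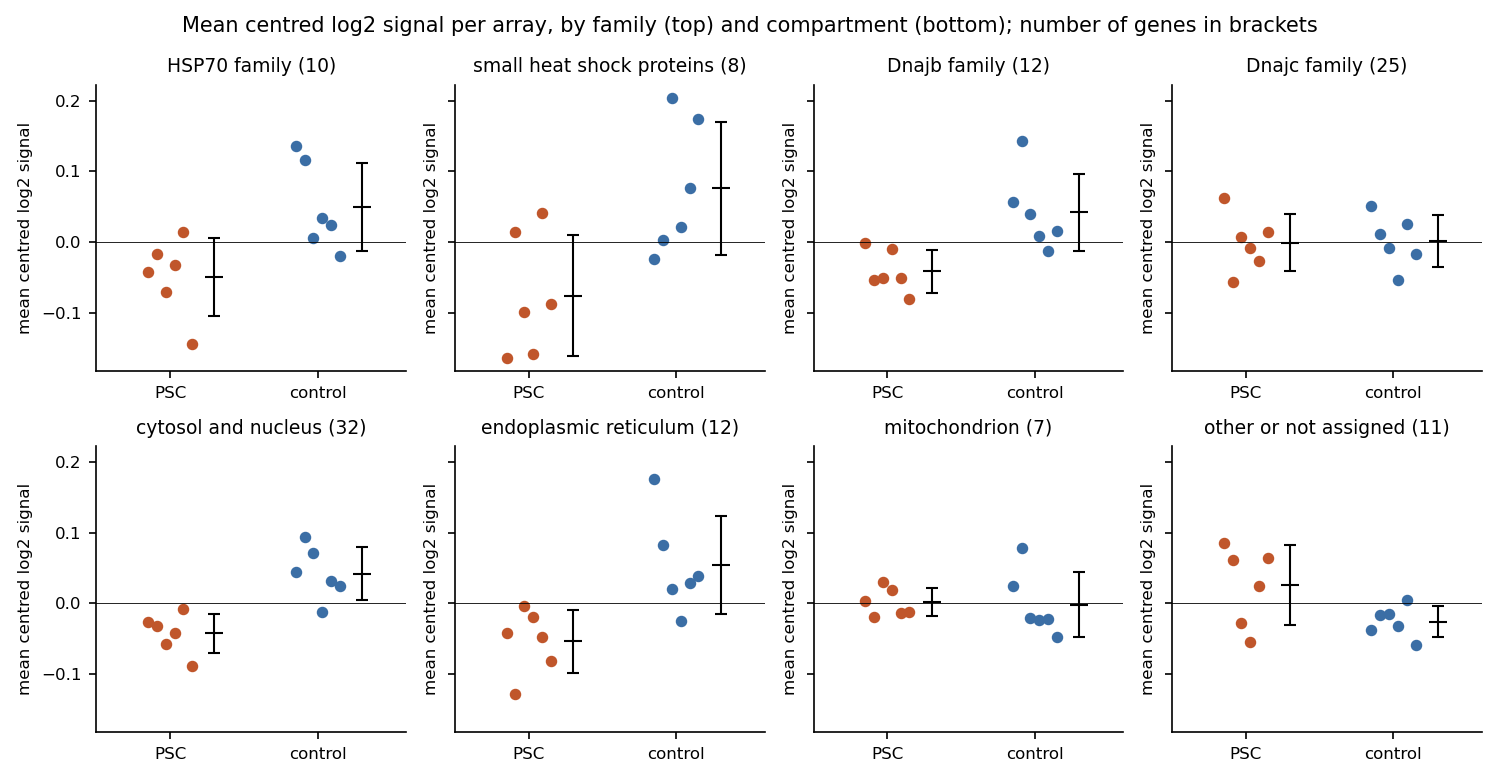
Mean of the centred log2 signals of a group of genes in each array (y axis), for 6 PSC and 6 control arrays, with the mean and SD as a bar; the top row shows families and the bottom row places of the protein. The cytosolic and the ER groups lie lower in PSC-fed rats with some overlap, and the arrays of the diets overlap for the mitochondrial group and the Dnajc family. For the group of other or no assigned place, 4 of 6 PSC arrays lie above every control.

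The wider chaperone network showed no gene past the threshold with all arrays. Of 76 listed genes of heat shock factors, HSP90 and its partners, exchange factors, the cytosolic chaperonin TRiC with prefoldin, ER folding and mitochondrial quality control, 68 were measured, and 0 were called in either direction by limma, or 1 without PSC replicate 4 (Spg7, lower). Of all genes tested, 1.89% were called lower and 0.716% higher, so that 0 calls among 68 genes lies near these shares. At unadjusted p below 0.05, 4 were higher and 7 lower, shares that stand beside 9.02% and 10.1% of all genes, and the median was -0.045. Hsf1, the factor that induces cytosolic heat shock genes, had -0.16 (SE 0.07, adjusted p = 0.268), and its relative Hsf2 had -0.072. Hsp90ab1 of the cytosol had 9.16 ± 0.08 in PSC-fed rats and 9.28 ± 0.09 in controls (SD, n = 6), a difference of -0.12 (SE 0.06). Hsp90b1, the HSP90 of the ER, had -0.13 (SE 0.06), and both missed the threshold (adjusted p = 0.297 and 0.306).

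HSP90 partners were led by Sugt1 and Chordc1, which act together in HSP90 complexes, at -0.27 (SE 0.09, adjusted p = 0.120) and -0.21 (SE 0.07, adjusted p = 0.144). Of 12 measured HSP90 genes and partners 9 had values below 0, where 45.7% of all genes did. In the TRiC and prefoldin list 7 of 12 lay below 0, led by Cct8 (-0.14) and Cct6a (-0.20). Among the exchange factors and regulators of HSP70 the values with the smallest p were Bag1 (0.13) and Bag3 (-0.14), the partner of Hspb8. In the list of ER folding and the unfolded protein response 13 of 21 lay below 0. Its members with the smallest p ran in opposite directions: Eif2ak3, which encodes the stress sensor PERK, had -0.22 (SE 0.08), and Sdf2l1, an ER stress-induced partner of Dnajb11, had 0.37 (SE 0.14). At unadjusted p below 0.05, 3 of the 21 were higher, where 9.02% of all genes were, and 2 were lower, where 10.1% were. Beside Sdf2l1 the higher ones were Herpud1 (0.22) and Edem1 (0.18), and beside Eif2ak3 the lower one was Atf6 (-0.13). In mitochondrial quality control the transcription factor gene Atf5 had 0.32 (SE 0.12) and the protease gene Spg7 -0.17.

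Immediate early genes, which respond within minutes to stress and handling of tissue, also had low values in PSC-fed rats. Of 10 measured (of 11 listed) 0 passed over all genes (3 lower without control replicate 2, and 1 without PSC replicate 4). In this list 9 lay below 0, where 45.7% of all genes did, and the list median was -0.27. An unadjusted p below 0.05 was reached by 6, all lower, where 10.1% of all genes were lower. Egr1 had -0.64 (SE 0.20, adjusted p = 0.108), Junb -0.26 (SE 0.08, adjusted p = 0.0818) and Atf3 -0.40 (SE 0.12, adjusted p = 0.0877). The mean log2 signal of the list was 6.30 to 6.70 in PSC-fed rats and 6.46 to 6.99 in controls, where control replicate 2 was lowest. Of the cold-induced RNA-binding protein genes, Cirbp had 0.19 (SE 0.08) and Rbm3 -0.052. The part of these genes in the differences of the chaperones was not tested.

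Further marker lists are given because they moved with diet or bear on cells that express chaperones. Of 8 macrophage markers 1 rose, Cd163 (0.87), a call that held in 4 of 12 fits without 1 array (PSC replicate 2 or 4, or control replicate 1 or 2), and all 8 had values above 0, with mean log2 signals of 7.23 to 7.67 in PSC-fed rats and 6.19 to 7.34 in controls. Of 6 lymphocyte markers 1 rose, Nkg7 (0.51), a call lost without PSC replicate 5 or 6 or control replicate 1 or 6, with 4.07 to 4.29 in PSC-fed rats and 3.95 to 4.12 in controls. Over all genes 0.716% rose and 53.8% had values above 0. Of 3 measured endothelial, 3 neutrophil and 1 red cell marker 0 passed.

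**Figure D5:**
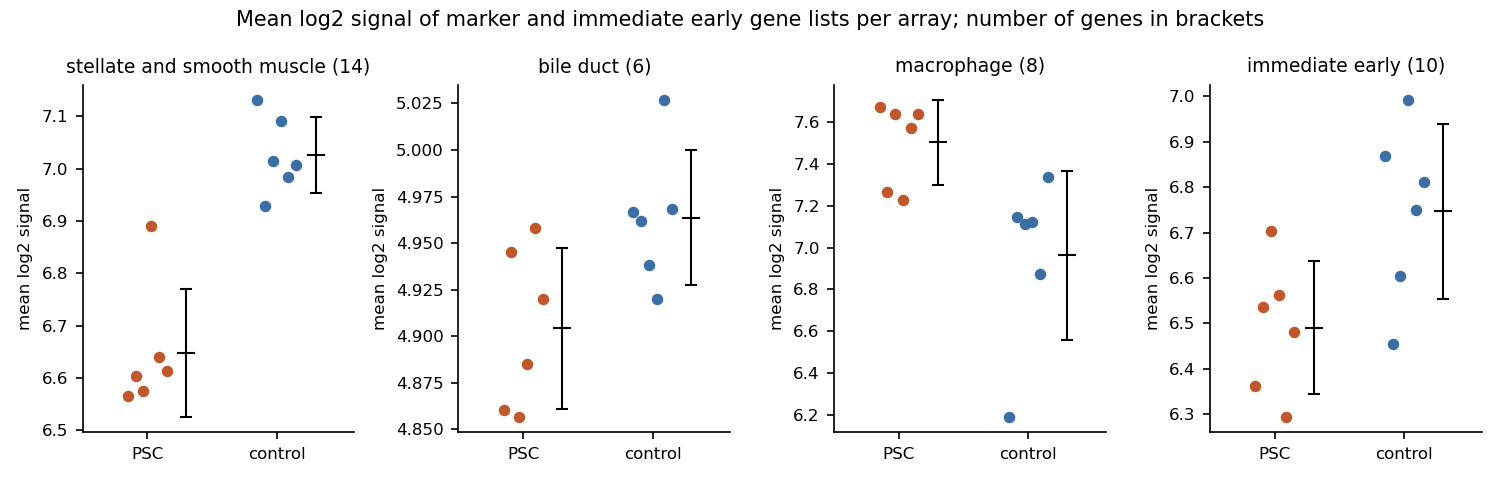
Mean log2 signal (y axis) of markers of stellate and smooth muscle cells, bile duct and macrophages and of immediate early genes in each of 6 PSC and 6 control arrays, with the mean and SD as a bar. The stellate and smooth muscle list lies between 6.57 and 6.89 in PSC-fed rats, below every control, and the other lists overlap.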

How the data were processed

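Liver RNA of 12 rats, 6 per diet, was hybridised to 1 array per rat. The table holds log2 signals, 1 per transcript cluster and array, as deposited by the authors; Expression Console and RMA are the tools that the submitters' processing notes name. In RMA probes are background corrected, quantile normalized and summarised, which compresses changes of dim genes. No version of these tools was found. No array was a copy of another.

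Of 30347 rows, 18511 have 1 symbol in the platform annotation, 575 several and 11261 none in the table used. All 62 members matched RefSeq (GRCr8) by gene number. A gene with several rows, which holds for 291 genes and 5 members, was represented by that of the highest mean. Diets were compared over 18166 genes with limma 3.58.1 in R 4.3.3 (lmFit and eBayes, two-sided, Benjamini-Hochberg over all genes, threshold 0.05), after a test on simulated data. Neighbouring pairs were compared by exact permutation in scipy 1.17.1. Figures were drawn with matplotlib 3.10.9.

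Members, lists and tests were chosen with earlier results of these data known. Named members follow a rule: those past the threshold, the 4 smallest p and the highest mean of each family, the 3 largest differences of each place, and those with several rows. Further members given with values were picked with their results in view. Places and roles come from general knowledge. Same-numbered arrays did not deviate together (correlations of -0.15 to 0.11), so that replicate numbers were not taken as pairs. Alternatives were a filter on dim genes, other normalizations, another variance prior, array weights, a replicate block, other row choices, a looser threshold and arrays left out; leaving out PSC replicates 2 and 5 together was added after seeing the data.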

Additional observations from a re-analysis of the deposited data

Results flagged for a closer look

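Among the 30 named members in both diets, 60 groups of 6 arrays were examined for an array far from the other 5 of its diet (Dixon's test at its 95% critical value), and 4 had one. Chance gives about 1 in 20 such groups. Hspb1 was 4.19 in PSC replicate 1, against 4.51 to 4.65 in the other PSC arrays. Dnajb4 was 7.32 in PSC replicate 4, against 6.87 to 6.95 in the others of that diet. Dnajc22 was 8.74 in PSC replicate 5, against 8.40 to 8.51. Hspa13 was 7.63 in control replicate 1, against 7.43 to 7.49 in the other controls. Hspb1 passed the threshold without PSC replicate 1 as well.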

How the results depend on the processing

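The count of members higher was 0 under every alternative run, and the count of members lower was 1 to 5. It was 1 with the replicate number as a block (Hspa4l), where Hspb1 and Dnajb9 had an adjusted p of 0.0566 and 0.0504, and 5 at a threshold of 0.1. Leaving out 1 array gave 2 or 3. The count of all changed genes was 711 with dim genes left out, 94 with the replicate block, 254 with all rows tested, 225 without PSC replicates 2 and 5, and 142 to 735 without 1 array, over 1.5 times off 473 without PSC replicate 1, 4, 5 or 6 or control replicate 1, 3, 4, 5 or 6. The median of the small heat shock proteins was -0.15 with dim genes left out, where fewer members remained. The mitochondrial median was 0.014 after another quantile normalization, 0.018 after cyclic loess, 0.013 with the mean of a gene's rows and -0.057 to 0.014 without 1 array, so that its sign was not settled. Cryab passed at 0.0468 after another quantile normalization, 0.0445 after cyclic loess and 0.0495 without PSC replicates 2 and 5. Dnajb9 had 0.0605 with all rows tested. The cause of these moves was not tested. Of the named members' values under alternatives, the looser threshold not counted, 645 kept their call and direction or stayed without a call, 10 lost a call and 3 gained one.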
